A study of Mus musculus with 6 samples.

Results

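The genes described here make, degrade and read cyclic AMP in GLUTag cells, a mouse line of enteroendocrine L cells that secretes the proglucagon product GLP-1. They were chosen by gene name, without a threshold on measured values, as the adenylyl cyclases, the cyclic nucleotide phosphodiesterases outside the photoreceptor family, the subunits of protein kinase A (PKA), both Epac proteins, the CREB family with its coactivators, and 4 G protein alpha subunits. The 46 members were all found among the 54281 genes of the count table. The 6 libraries hold polyadenylated RNA of cells of the same line, counted at the 3′ end of transcripts. Plate 1 (passage 23) gave 3 libraries and plate 2 (passage 27) gave 3, all from cells grown for 48 h in medium with 1 g/L glucose and 10% serum. There was no treatment, genotype or time contrast, so the only split was that between the plates, and plate and passage cannot be told apart. The wells of a plate were seeded from the line at 1 passage, and the p-values below therefore measure only the spread between these wells, which may be technical. GLUTag cells carry a viral large T antigen driven by the proglucagon promoter and are a tumour-derived line, so the levels describe this line only.

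Cyclic AMP is made from ATP by adenylyl cyclases, which stimulatory G proteins activate and inhibitory G proteins restrain. Phosphodiesterases end the signal by hydrolysis. In between it is read by PKA, whose regulatory subunits release the catalytic subunits when they bind the nucleotide, and by Epac proteins, which activate the small GTPase Rap. PKA also phosphorylates CREB in the nucleus, where CRTC coactivators join it on target genes. In L cells a rise in cyclic AMP is a well-known trigger of GLP-1 release and of proglucagon transcription.

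The libraries held 21399987 to 36488198 counts, and the middle-total library of plate 2 stood apart from the other 5, as detailed below. Levels are given as counts scaled to a total of 1000000 per library (CPM). Since about 1 count is made per transcript whatever its length, CPM was used to compare genes, although genes differ in how well their annotated 3′ ends capture reads. A gene was called detected when it had more than 3 counts in every library, a floor of 0.0822 to 0.140 CPM. By that rule 15271 genes (28.1% of the table) and 38 of the 46 members (82.6%) were detected. Of the marker lists, 7 of 7 enteroendocrine genes were detected, against 0 of 4 immune genes, 1 of 4 fibroblast genes (Col1a2), 1 of 4 goblet and Paneth genes (Tff3), 2 of 5 enterocyte genes, with Apob and Fabp2 at 0, and 3 of 4 neuronal genes.

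**Figure D1:**
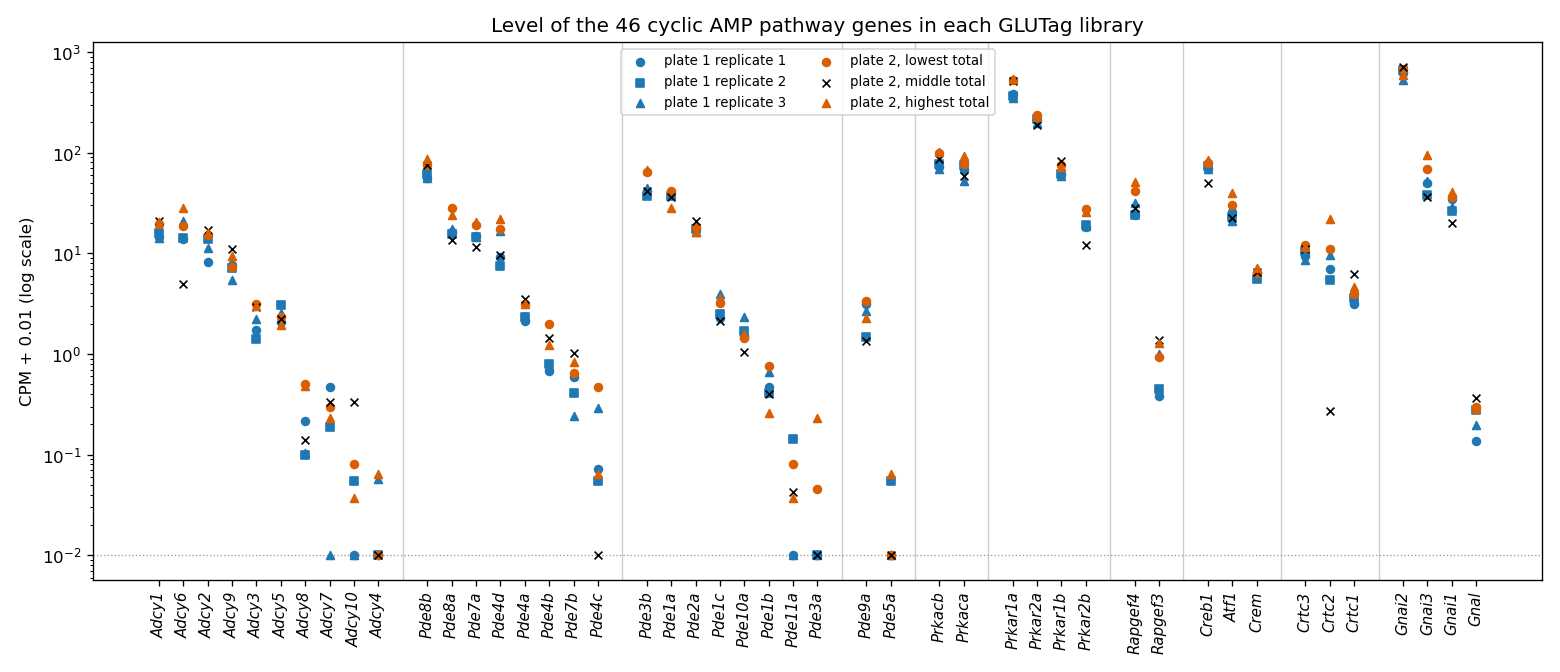
Level of each of the 46 members (x axis, grouped by class and ordered by mean within it) in each of the 6 libraries, as CPM + 0.01 on a log axis; points on the dotted line had no count. Gnai2 and Prkar1a had 350.2 CPM or more in every library, and the middle-total library of plate 2 (crosses) fell well below the rest for Adcy6 and for Crtc2, which had 0.259 CPM there.

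Adenylyl cyclase transcripts summed to 61.3 ± 10.6 CPM (SD, n = 6) and came mainly from 3 genes, Adcy1, Adcy6 and Adcy2, which together made up 78.0 ± 3.84% of the class. Adcy1 (chr11:7063489-7178506, plus strand; all gene positions are on GRCm38) encodes a cyclase stimulated by calcium and calmodulin. It had 14.6, 15.9 and 14.3 CPM in plate 1 replicates 1, 2 and 3, and 19.4, 20.8 and 20.4 CPM in the plate 2 libraries with the lowest, middle and highest total. These 3 values were all above those of plate 1 on this scale, as for 35.2% of all genes tested, but not with the TMM scaling used below. Adcy6 (chr15:98589973-98610076, minus strand), a cyclase that calcium inhibits, had 14.0, 14.4 and 20.9 CPM on plate 1, and 18.7, 4.98 and 27.9 CPM on plate 2. Its lowest and its highest value were on the same plate.

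Adcy2, of the calcium-insensitive group that G protein beta-gamma subunits activate, averaged 13.6 ± 3.24 CPM. Adcy9, the membrane-bound cyclase least sensitive to forskolin, had 7.71, 7.07 and 5.47 CPM on plate 1, and 7.34, 10.9 and 9.46 CPM on plate 2. Adcy1 was above Adcy6 in 4 of 6 libraries and Adcy6 above Adcy2 in 5 of 6, whereas Adcy1 was above Adcy2, and Adcy2 above Adcy9, in 6 of 6, so that among these 3 leading genes only Adcy6 changed place. Adcy5, the closest relative of Adcy6, had 2.08, 3.05 and 2.57 CPM on plate 1, and 2.31, 2.23 and 1.95 CPM on plate 2. Adcy3 (2.39 ± 0.726 CPM), known from olfactory cilia, was the lower of these 2 in 3 of 3 libraries of plate 1 and the higher in 3 of 3 of plate 2. Adcy8, the other strongly calmodulin-stimulated cyclase, had 2 to 17 counts a library, Adcy7 had 0 to 11, and the soluble, bicarbonate-activated Adcy10 had 0 to 10. Adcy4 did not exceed 2 counts in any library.

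Within a library, 17 pairs of paralogs or alternative subunits were compared by the log2 ratio of CPM + 1. The signs of the 6 differences were flipped in all ways, as an exact permutation test that is two-sided, and p-values were adjusted over the 17 pairs (Benjamini-Hochberg). The smallest p that 6 libraries allow is 0.031, which 14 of the 17 pairs reached, each with the same direction in 6 of 6 libraries and an adjusted p of 0.0379. The pairs were chosen with earlier results of these data known, and some set an abundant gene beside one near the floor, such as Gnal. The count of 14 and the adjusted p therefore depend on the list, and do not measure how often paralogs differ. Adcy6 exceeded Adcy5 by 2.26 ± 0.81 and was 1 of those 14 pairs. Adcy9 and Adcy6 were not separated (-0.86 ± 0.98, Adcy9 the higher in 1 of 6 libraries, exact permutation p = 0.125, adjusted p = 0.142). The exception was the middle-total library of plate 2, without which the mean difference was -1.24.

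**Figure D2:**
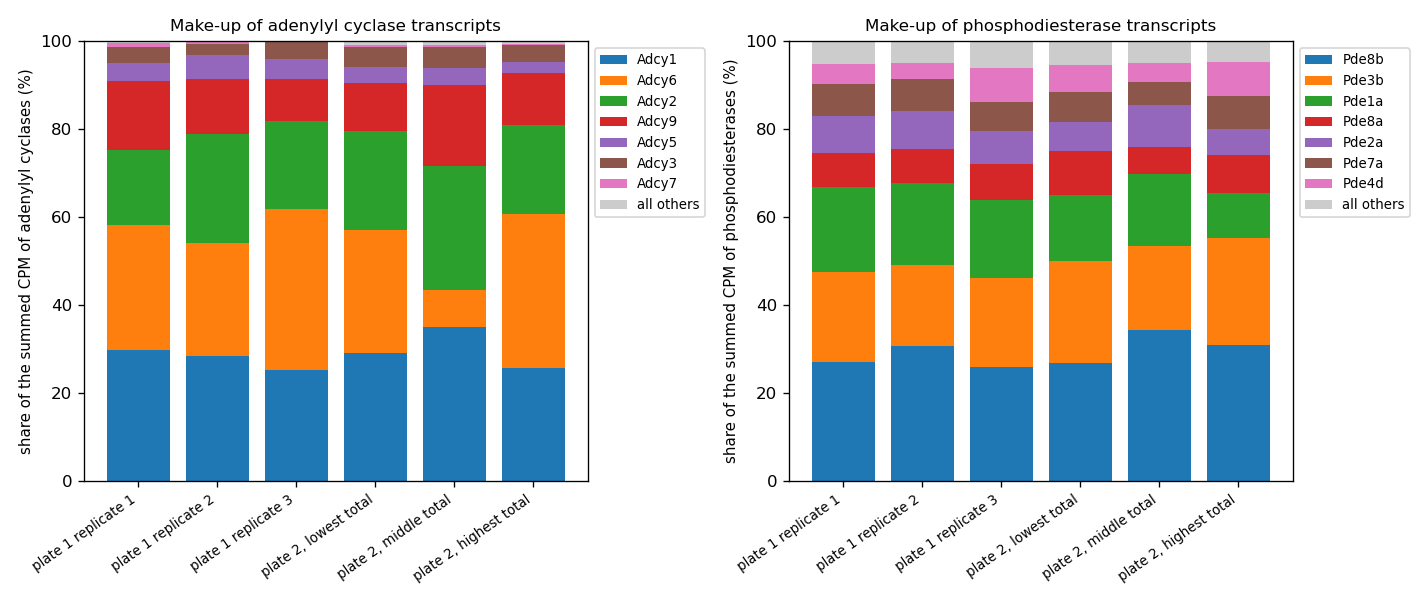
Share (%) of each gene in the summed CPM of the adenylyl cyclases (left) and of the phosphodiesterases (right), 1 stacked bar per library; the 7 genes with the highest mean share are coloured and the rest are grey. The Adcy6 segment shrinks to 8.37% in the middle-total library of plate 2, while Pde8b, Pde3b and Pde1a fill 64.0% to 69.8% of the phosphodiesterase bar in every library.

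Phosphodiesterase transcripts summed to 234 ± 35.8 CPM, which was 3.84 ± 0.30 times the cyclase sum (range 3.50 to 4.22 over the 6 libraries). The cyclic AMP-specific genes held 51.8 ± 2.83% of that sum, the genes whose products hydrolyse both cyclic AMP and cyclic GMP held 47.2 ± 2.63%, and the cyclic GMP-specific genes held 1.02 ± 0.346%. Just 3 genes, Pde8b, Pde3b and Pde1a, made up 66.5 ± 2.09%.

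Pde8b (chr13:95024454-95250336, minus strand) encodes a high-affinity cyclic AMP phosphodiesterase that is insensitive to the common inhibitor IBMX. It had 55.9, 61.3 and 56.3 CPM on plate 1, and 75.1, 75.7 and 85.9 CPM on plate 2. It led the class in every library and was the higher of the PDE8 pair in 6 of 6 libraries, with a log2 ratio of Pde8a to Pde8b of -1.81 ± 0.34. Pde8a had 16.4, 15.4 and 17.4 CPM on plate 1, and 28.0, 13.6 and 24.3 CPM on plate 2. Pde3b (chr7:114415281-114539251, plus strand), the cyclic GMP-inhibited enzyme through which insulin lowers cyclic AMP in fat and liver, had 42.1, 36.9 and 44.2 CPM on plate 1, and 64.9, 42.1 and 68.0 CPM on plate 2.

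Its paralog Pde3a was at 0 in 4 libraries and had 0.0356 and 0.219 CPM in the lowest-total and highest-total libraries of plate 2, at most 8 counts. The difference between Pde3b and Pde3a was 5.57 ± 0.28 on the log2(CPM + 1) scale, which understates a ratio to a gene this low. Pde1a, of the calcium and calmodulin-stimulated family, had 40.0, 37.2 and 38.8 CPM on plate 1, and 41.9, 36.1 and 28.3 CPM on plate 2. It was below Pde3b in 5 of 6 libraries and above Pde8a in 6 of 6. Its relatives were far lower, with Pde1c at 2.94 ± 0.766 CPM and Pde1b at 0.482 ± 0.186 CPM.

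A middle tier was formed by Pde8a, Pde2a, Pde7a and Pde4d, no neighbouring pair of which kept its order in more than 4 of 6 libraries. Pde2a, which cyclic GMP stimulates, averaged 17.9 ± 1.73 CPM. Pde7a had 15.0, 14.5 and 14.6 CPM on plate 1, and 19.0, 11.5 and 20.4 CPM on plate 2. Pde7b had 0.583, 0.398 and 0.234 CPM on plate 1, and 0.641, 1.00 and 0.822 CPM on plate 2. Pde7a exceeded it by 3.38 ± 0.38 on the log2(CPM + 1) scale, in 6 of 6 libraries, and the ratio of the mean CPM, which that scale understates, was 25.8. Of the rolipram-sensitive PDE4 family, Pde4d led with 9.21, 7.47 and 16.7 CPM on plate 1, and 17.3, 9.61 and 21.8 CPM on plate 2, so that its libraries differed by more than 2-fold within each plate. Pde4a averaged 2.77 ± 0.553 CPM and Pde4b 1.13 ± 0.500 CPM, and Pde4c had 0 to 13 counts.

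Pde10a, best known from striatal neurons, averaged 1.59 ± 0.426 CPM. Of the cyclic GMP-specific genes Pde9a averaged 2.37 ± 0.850 CPM, and Pde5a, the target of sildenafil, did not exceed 2 counts. Pde11a did not exceed 3 counts.

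The PKA subunits were the most abundant effectors. Regulatory subunit transcripts summed to 747 ± 107 CPM and catalytic subunit transcripts to 155 ± 26.4 CPM, a ratio of 4.86 ± 0.45 (range 4.29 to 5.51 over the 6 libraries). Among regulatory subunits, Prkar1a held 59.2 ± 3.71%, Prkar2a 28.8 ± 3.45%, Prkar1b 9.26 ± 0.636% and Prkar2b 2.72 ± 0.601%.

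Prkar1a (chr11:109649405-109669656, plus strand), the widely expressed type I alpha subunit, ranked 331 by mean CPM among all genes of the table. It had 384, 365 and 350.2 CPM on plate 1, and 522, 513 and 537 CPM on plate 2. Its plate 2 values were all above those of plate 1, as for 35.2% of all genes tested on this scale. With the TMM scaling used below they were too, as for 12.8% of all genes tested. It exceeded Prkar1b, the type I subunit enriched in neurons, by 2.66 ± 0.13 in log2. Prkar1b had 61.6, 61.8 and 59.2 CPM on plate 1, and 76.3, 82.1 and 72.7 CPM on plate 2.

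Prkar2a (chr9:108689314-108750436, plus strand), a type II subunit that binds A-kinase anchor proteins tightly, had 209, 214 and 197 CPM on plate 1, and 239.5, 189 and 226 CPM on plate 2. Prkar1a exceeded it by 1.04 ± 0.27 in log2, in 6 of 6 libraries. Prkar2b, the type II subunit prominent in brain and fat, had 18.3, 19.0 and 18.9 CPM on plate 1, and 27.3, 12.2 and 25.8 CPM on plate 2. Prkar2a exceeded it by 3.37 ± 0.28, again in 6 of 6 libraries.

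The catalytic genes were close to each other. Prkaca (chr8:83972993-83996443, plus strand) had 67.1, 76.0 and 52.3 CPM on plate 1, and 77.0, 58.8 and 91.7 CPM on plate 2. Prkacb (chr3:146729574-146812990, minus strand) had 71.6, 77.8 and 68.3 CPM on plate 1, and 100.4, 85.8 and 101 CPM on plate 2. Prkacb was the higher in each of the 6 libraries, although by only 0.26 ± 0.20 in log2, and it held 54.5 ± 3.47% of the catalytic sum.

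**Figure D3:**
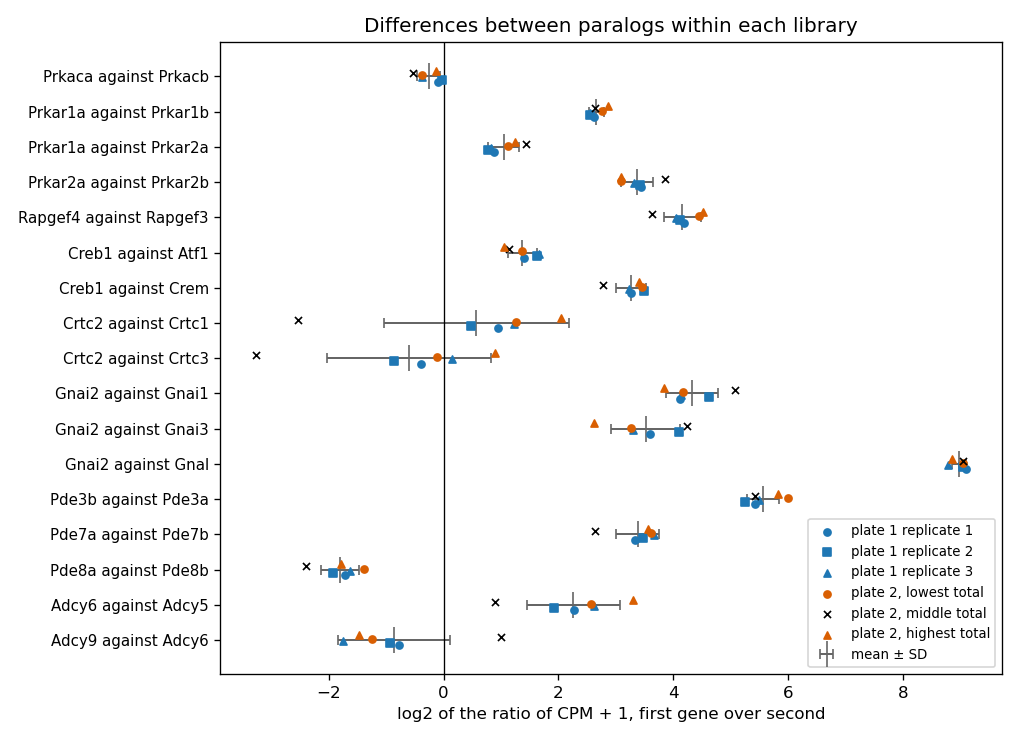
Log2 ratio of CPM + 1 between the first and the second gene of each of the 17 pairs; points are the 6 libraries and grey bars the mean ± SD. In 14 pairs the 6 points lie on the same side of 0. The crosses (middle-total library of plate 2) lie furthest apart in both Crtc2 pairs and in the pair of Adcy9 and Adcy6. They are also the extreme point in other pairs, such as Adcy6 and Adcy5 (0.888).

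Almost all Epac transcripts counted in GLUTag cells were those of Epac2. Rapgef4 (chr2:71981240-72257474, plus strand), which encodes Epac2, the isoform of islets and brain, had 23.9, 23.9 and 31.9 CPM on plate 1, and 41.2, 28.2 and 51.5 CPM on plate 2. Rapgef3, which encodes the more widely expressed Epac1, had 0.375, 0.442 and 0.981 CPM on plate 1, and 0.926, 1.36 and 1.29 CPM on plate 2. Rapgef4 held 97.4 ± 1.10% of the Epac sum and exceeded Rapgef3 by 4.16 ± 0.32 on the log2(CPM + 1) scale, in 6 of 6 libraries. The ratio of the mean CPM, which that scale understates, was 37.4. Both genes overlap antisense transcripts at their 3′ ends, and the strand setting of the counting is not given in the sources used here.

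In the CREB family, Creb1 (chr1:64532645-64604548, plus strand) held 68.0 ± 3.50% of the transcripts. It had 69.6, 72.9 and 68.9 CPM on plate 1, and 79.7, 50.6 and 84.7 CPM on plate 2, the low value again being that of the middle-total library. Atf1, its close relative, had 25.8, 23.1 and 21.1 CPM on plate 1, and 30.3, 22.5 and 40.2 CPM on plate 2. Crem, whose ICER transcripts repress the same sites, was even, with 6.38, 5.61 and 6.45 CPM on plate 1, and 6.37, 6.50 and 7.13 CPM on plate 2. Creb1 exceeded Atf1 by 1.37 ± 0.25 and Crem by 3.27 ± 0.26 in log2, in 6 of 6 libraries each.

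The 3 CRTC coactivators were low. Crtc3 was above Crtc1 in 6 of 6 libraries, while the place of Crtc2 varied. Crtc3 had 9.38, 10.6 and 8.64 CPM on plate 1, and 12.0, 11.1 and 11.5 CPM on plate 2. Crtc1, the form best known from neurons, had 3.13, 3.58 and 3.55 CPM on plate 1, and 3.95, 6.28 and 4.58 CPM on plate 2. Crtc2 (chr3:90254163-90264125, plus strand), the form best known from liver, had 6.92, 5.39 and 9.63 CPM on plate 1, and 10.9, 0.259 and 22.1 CPM on plate 2. The low value was 8 counts, in a library of 30914501, whereas the highest-total library had 807. Crtc2 and Crtc1 were not separated (0.57 ± 1.60 in log2, Crtc2 the higher in 5 of 6, exact permutation p = 0.406, adjusted p = 0.432), and neither were Crtc2 and Crtc3 (-0.60 ± 1.43, Crtc2 the higher in 2 of 6, exact permutation p = 0.438). Without the middle-total library of plate 2 the means were 1.19 and -0.07, and 5 libraries cannot give a p under 0.0625.

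CREB proteins bind the cyclic AMP response element, TGACGTCA, which reads the same on both strands. It was looked for in the RefSeq promoter windows of GRCm38.p6, which run from 250 bases before to 50 bases after each start, and 36 of the 46 members have an entry. The full element was found in 1 of these genes, Prkar1a (2.78%), against 549 of 27025 genes with an entry (2.03%). By window, the full element was in 2 of 73 for the members (2.74%), against 1.79% of all 32851 windows. The 2 Prkar1a windows hold the same site. Its first base lies 38 bases after the start used for the first window, and 49 bases before the start used for the second. Of the 49 genes of the wider pathway lists with an entry, 2 also hold it (4.08%). Prkar1a is shown with these 2, Rap1b, which encodes a Rap GTPase acted on by Epac, and Dusp1, a classical CREB target, with the element in capitals, 5′ to 3′ on the strand of the gene (Prkar1a chr11:109650880-109650927, plus strand; Rap1b chr10:117845989-117846036, minus strand; Dusp1 chr17:26508588-26508635, minus strand).
Prkar1a: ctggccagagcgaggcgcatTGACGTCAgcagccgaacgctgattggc
Rap1b: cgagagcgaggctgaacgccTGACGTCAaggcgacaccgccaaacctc
Dusp1: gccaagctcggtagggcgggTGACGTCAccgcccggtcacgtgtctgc

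The short element, TGACG or CGTCA on either strand and counted also where it is part of the full element, was present in 16 of the 36 members (44.4%) and in 23.0% of all genes with an entry. Since the members have more windows per gene on average than all genes, the share per window is the closer comparison, at 18 of 73 (24.7%) for the members and 20.8% for all windows. Of the 11 listed CREB target genes, 11 held a short element, in 12 of their 18 windows (66.7%), and 1 held the full element. These are matches of letters, and binding was not measured here.

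Among the 4 alpha subunits listed as members, Gnai2 (chr9:107614125-107635367, minus strand), an inhibitor of adenylyl cyclases, ranked 215 among all genes of the table. It held 87.6 ± 4.02% of their sum, which leaves out subunits of the wider list such as Gnao1 (89.4 ± 4.12 CPM) and Gnaz (77.3 ± 11.0 CPM). Gnai2 had 618, 671 and 524 CPM on plate 1, and 679.8, 713 and 589 CPM on plate 2. Its paralog Gnai3 had 50.3, 38.3 and 52.5 CPM on plate 1, and 69.5, 36.7 and 95.5 CPM on plate 2. Gnai1 had 34.8, 26.2 and 29.0 CPM on plate 1, and 36.7, 20.1 and 40.4 CPM on plate 2. Gnai3 was above Gnai1 in each of the 6 libraries, and both had their lowest value in the middle-total library of plate 2. Gnai2 exceeded Gnai3 by 3.52 ± 0.60 and Gnai1 by 4.33 ± 0.45 in log2, in 6 of 6 libraries each.

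Gnal, the stimulatory subunit of olfactory neurons and striatum, had 0.125, 0.266 and 0.187 CPM on plate 1, and 0.285, 0.357 and 0.274 CPM on plate 2, not far over the floor. Gnai2 exceeded it by 8.98 ± 0.13 on the log2(CPM + 1) scale, which understates a ratio to a gene this low. The ubiquitous stimulatory subunit, Gnas, which is in a wider list and not a member, had 1390.2 ± 235 CPM.

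The wider pathway lists, chosen as the members were, hold 63 genes, of which 54 were detected. The 4 PKA inhibitors and PKA-like kinases were all detected, led by Pkib at 110.1 ± 16.5 CPM. Of the 12 A-kinase anchors 10 were detected, led by Akap11 at 79.3 ± 15.5 CPM, with Akap4 at 0 and Akap5 at 2 to 26 counts. The 6 Epac partners were led by Rap1b at 362 ± 52.0 CPM, and the 5 CREB cofactors and SIK kinases by Crebbp at 93.0 ± 17.8 CPM.

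Of the 11 CREB target genes 9 were detected. Bdnf led at 246 ± 70.8 CPM, while the gluconeogenic gene Pck1 was at 0 and its regulator Ppargc1a had 0 to 4 counts. Among photoreceptor phosphodiesterases, Pde6d, whose product is a widely expressed carrier of prenylated proteins, led at 71.0 ± 19.5 CPM, and the catalytic genes Pde6b and Pde6c were not detected in every library. Of the 12 channels, Popeye genes and exporter, 9 were detected, and Cnga1, Cnga2 and Cnga4 were not detected in every library.

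The plates were compared on the whole table with edgeR (quasi-likelihood test, TMM scaling, 15669 genes after the filter on low counts). Of the 37 members tested, 0 had an adjusted p under 0.05, where 29 genes in all did (0.185%). DESeq2 called 0 of 35 members, against 3.80% of all genes, and limma-voom 0 of 37, against 0.191%. At an unadjusted p under 0.05 DESeq2 had 1 member, against 2315 genes in all. These were counted over the 27022 genes with any count, not only the 13919 with an adjusted p. Limma-voom had 2 members, against 2549 of 15669 genes. With edgeR 2 members had an unadjusted p under 0.05, against 16.1% of all genes tested. These were Pde1a, with a log2 fold change of plate 2 over plate 1 of -0.39 (SE 0.15, edgeR adjusted p = 0.253), and Prkar1a at 0.25 (SE 0.10, adjusted p = 0.288). The other 9 members were too low to be tested.

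Of the 37 members, 21 had a positive log2 fold change, and the median was 0.13, against 0.03 over all genes tested. The values ran from -0.71 for Pde10a (SE 0.32) to 0.78 for Pde4b (SE 0.36). On TMM-scaled CPM, the plates did not overlap in 4 members that were higher on plate 2 (Adcy3, Pde4a, Pde4b and Prkar1a; 10.8%, against 12.8% of all genes) and in 3 that were lower (Adcy5, Pde1a and Pde10a; 8.11%, against 12.0%). On CPM without this scaling the counts were 12 higher (32.4%, against 35.2% of all genes) and 0 lower (against 4.00%). These 12 were the same 4 genes with Adcy1, Adcy2, Pde7b, Pde8b, Prkacb, Prkar1b, Crtc1 and Crtc3. Of the 54 pathway genes tested, 0 passed with edgeR and 0 with limma-voom. At an unadjusted p under 0.05 there were 7 with each tool, against 2520 (edgeR) and 2549 (limma-voom) of all 15669 genes. With DESeq2 2 of 51 passed, a share close to that of all genes. These 2, named after their values were seen, were Gna11 (log2 fold change -0.87, DESeq2 adjusted p = 7.75e-05, edgeR adjusted p = 0.0563) and Gna12 (-0.97, DESeq2 adjusted p = 0.0123, edgeR adjusted p = 0.118), alpha subunits outside the adenylyl cyclase branch.

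**Figure D4:**
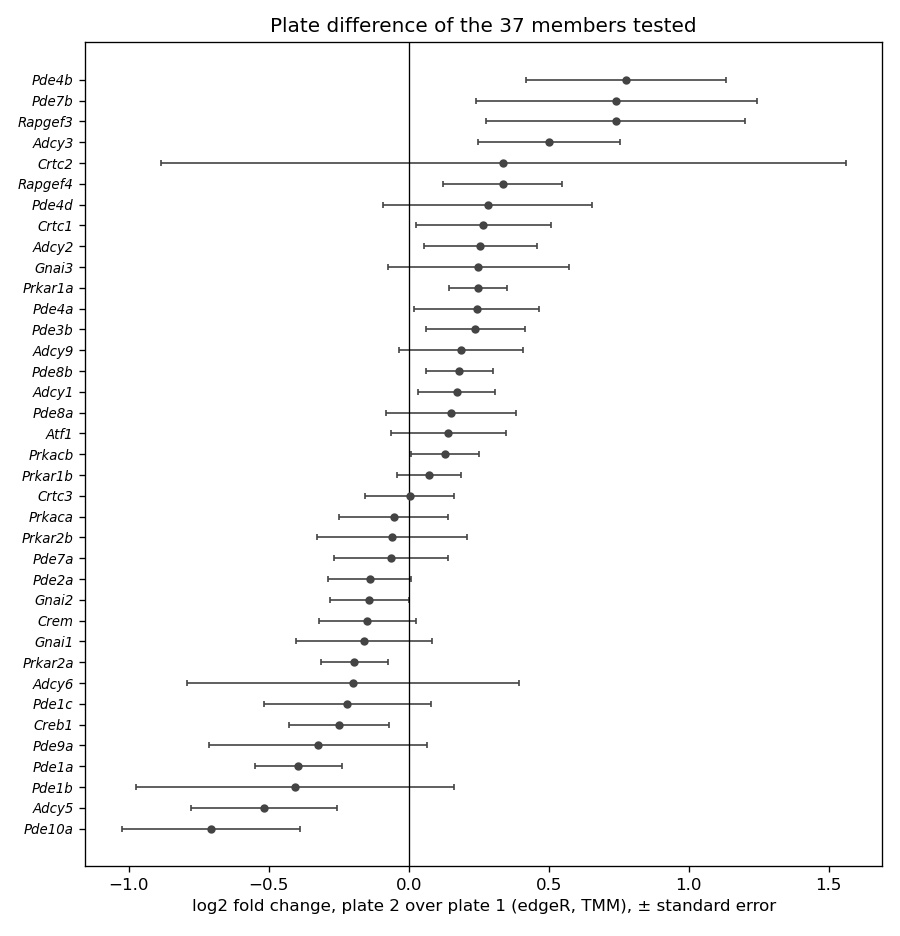
Log2 fold change of plate 2 over plate 1 (edgeR with TMM scaling, 3 libraries each) for the 37 members tested, with bars of ± 1 standard error, ordered by value. None passed an adjusted p of 0.05, and Crtc2 and Adcy6 had the widest bars, 1.22 and 0.59.

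This result depended on the scaling and on 1 library. With no scaling beyond the library total, the median log2 fold change of all genes moved from 0.03 to 0.30, and 2 members passed as higher on plate 2, Prkar1a at 0.52 and Pde8b at 0.45, where 9.01% of all genes passed in that direction. In that fit 9 of 54 pathway genes passed as higher, and 1 as lower, where 0.453% of all genes did. Relative to the median of all genes, the differences of Prkar1a and Pde8b were 0.22 and 0.15. Without the middle-total library of plate 2, with TMM scaling, 3 of 38 members passed as higher on plate 2, against 4.20% of all genes, and 0 as lower, against 7.83%. Of 55 pathway genes, 1 passed as higher and 2 as lower in that fit. The 3 members were Pde3b at 0.39 (edgeR adjusted p = 0.0282), Rapgef4 at 0.50 (adjusted p = 0.0328) and Gnai3 at 0.51 (adjusted p = 0.0455).

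The middle-total library of plate 2 was then set beside the average of its 2 plate mates, for genes averaging 5 CPM or more. In it, 5 of 26 members (19.2%) were more than 2-fold lower, against 8.71% of all 10428 genes. They were Crtc2 (ratio 0.0157), Adcy6 (0.214), Gnai3 (0.445), Prkar2b (0.458) and Pde4d (0.492), followed by Pde8a (0.521) and Gnai1 (0.522) short of that limit. The ratio was below 1 for 19 of the 26 members, against 53.1% of all genes, with a median of 0.755, against 0.975 over all genes.

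Other members had ratios close to 1 in that library, such as Prkar1a (0.969), Crem (0.963), Crtc3 (0.948) and Adcy1 (1.04), and Adcy9 was higher (1.30). In none of the other 5 libraries was a member more than 2-fold lower, where 0.105% to 0.316% of all genes were. More than 2-fold higher were Pde4d in plate 1 replicate 3 (1 of 26 members, against 0.355% of all genes), and Adcy6 (2.36) and Crtc2 (3.95) in the highest-total library of plate 2 (2 of 26, against 1.67%). The mean behind the ratios of Adcy6 and Crtc2 includes the middle-total library. Against the lowest-total library alone, the highest-total library had 1.49 times the Adcy6 and 2.02 times the Crtc2. Of the 7 enteroendocrine markers, Scg2 (ratio 0.288), Gcg (0.669) and Neurod1 (0.679) were also lower in the middle-total library, while Pcsk1 (1.14), Chgb (1.23), Chga (1.56) and Cck (1.83) were higher, so that their sum, 5984 to 6892 CPM over the plate 2 libraries, hides opposite shifts. The 4 neuronal markers had ratios of 0.362 (Snap25), 0.670 (Rbfox3), 0.873 (Elavl4) and 0.982 (Slc17a6) in that library. Summed immune markers did not exceed 0.427 CPM in any library. What sets the middle-total library apart was not tested.

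**Figure D5:**
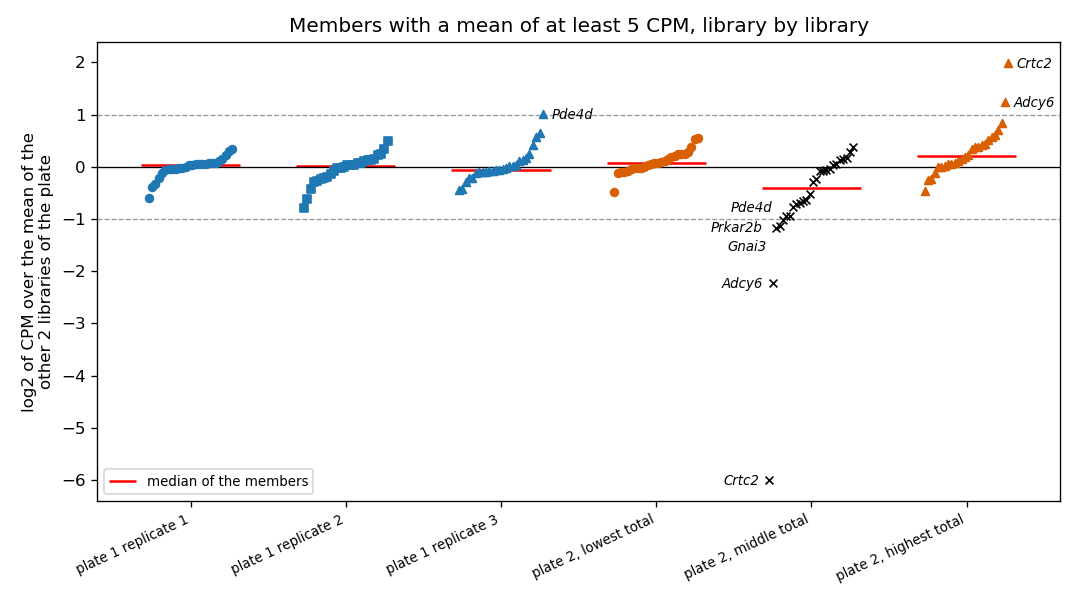
Log2 ratio of CPM in 1 library to the average of its 2 plate mates, for the 26 members that average 5 CPM or more, sorted within each library; red lines are medians and dashed lines mark 2-fold. The middle-total library of plate 2 has 5 members below the lower line, Crtc2 at a ratio of 0.0157 the furthest, and no other library has any.

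Reads of some members could be shared with overlapping genes. At their 3′ ends Adcy3 overlaps Cenpo, Gnal overlaps Mppe1, Prkar1b overlaps Gm15672 and Pde2a overlaps Gm45837, both on the same strand, and Adcy6, Pde5a, Pde7a, Pde8b and Pde9a overlap other annotated transcripts, as both Epac genes do, so these levels are less certain.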

How the data were processed

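Polyadenylated RNA of 6 GLUTag wells was made into QuantSeq 3′ libraries. The authors trimmed reads with Trim Galore 0.6.4, assigned them with Salmon 1.5.1 without length correction (GRCm38, GENCODE M23) with gene sums from Tximeta. What they deposited are expected counts, estimates that can be fractional, without normalization. Columns of plate 2 match no single replicate and are called lowest, middle and highest by total.

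CPM was computed over the column total, and counts were rounded for edgeR 4.0.16 (TMM, filterByExpr, robust quasi-likelihood) and DESeq2 1.42.0. limma 3.58.1 (voom), other scalings, filters and pseudocounts, and the omission of each library were alternatives. Adjusted p-values are Benjamini-Hochberg. The fit was tested only on simulated data with changes larger than those of the members and no library set apart. That test therefore cannot tell how well small plate differences would be found here. Names and positions are from GENCODE M21 (54107 of 54281 identifiers matched). The planned comparison of subunit proteins was not made. R 4.3.3 and Python 3.11.15 were used. Floors cover counting error only.

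The members, the wider lists and the pairs were chosen with earlier results of these data known. Every member is named, with the value in each library for the highest of a class and for the pairs, and of the wider lists the highest and the undetected genes are named, except 1 gene that is not reported here.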

Additional observations from a re-analysis of the deposited data

How the results depend on the processing

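Within a library a scaling factor cancels between the genes of a pair, apart from the pseudocount, so the pairs under other scalings are no sign of stability. Leaving out 1 of 6 libraries cannot move a mean by its SD, so levels, class sums and pair means under omission are none either, and the mean of Crtc2 ranged from 6.63 to 11.0 CPM. Between 32 and 39 members were detected under the other rules. The number of members called between the plates was 0 with every other tool, filter and scaling planned, but 2 without scaling beyond the total, and ranged from 0 to 3 when each library was left out. The log2 fold change of Gnai3 ranged from -0.094, without the highest-total library of plate 2, to 0.51, without the middle-total one. The count over all genes was 29 with edgeR, 529 with DESeq2, 545 without a filter, 1482 without scaling, and 0 to 1911 when each library was left out. The 2 fits that called 0 had 1611 and 2121 genes with an unadjusted p below 0.05. The cause was not tested. The column names number the libraries 1 to 3 on each plate. With that number as a replicate block, added after seeing the data, 0 members and 5 genes in all were called. Same-numbered libraries deviated from their plate means with correlations of 0.017, 0.020 and 0.083, and not each correlated best with its own number. With so few libraries a plate, values this small cannot show whether they share more than a number. Members under the floor of 3 counts cannot be told from absent ones at this depth.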
